A study of Mus musculus with 7 samples.

Results

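MHC class I antigen presentation was followed through 10 genes: H2-K1, H2-D1, B2m, Tap1, Tap2, Tapbp, Psmb8, Psmb9, Psmb10 and Nlrc5. A gene was taken where the array annotation gave a transcript cluster that symbol and no other, and where a gene had several such clusters the brightest one on average was used. By this rule 9 of the 10 genes had a value, out of 18820 genes in all. H2-D1 had none, because its transcript cluster also carries the symbols H2-K1 and LOC547349, and that shared cluster is described beside H2-K1.

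The cells were 3T3-L1, an established mouse line of fibroblast-like cells that turn into adipocytes under a hormone mixture. Both groups went through the same differentiation, 2 days in isobutylmethylxanthine, dexamethasone and human insulin followed by insulin alone, and RNA was taken on day 7. In the first group of 3 samples the medium held an SCD inhibitor bought from a supplier (SCD is stearoyl-CoA desaturase, the enzyme that puts a double bond into saturated fatty acids) at 1 µM for the whole period, and in the other group of 4 samples it held the solvent DMSO. The 7 Affymetrix arrays each hold 1 sample, the line is a single clone, and nothing in the labels tells whether the replicates were independent cultures. The p-values therefore describe the scatter of these samples, which could be technical.

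Class I molecules show fragments of a cell's own proteins at its surface, where CD8 T cells inspect them. The proteasome cuts proteins into peptides, a form of it with the inducible subunits Psmb8, Psmb9 and Psmb10 favours fragments that class I can hold, and the transporter made of Tap1 and Tap2 carries them into the endoplasmic reticulum. There tapasin (Tapbp) holds the transporter close to a heavy chain, such as H2-K1 or H2-D1, paired with the light chain B2m, until a peptide fits. Nlrc5 is the transactivator of these genes, and interferons are known to raise most of them together.

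The 5′ flanks of the classical class I genes hold a known enhancer, in which a kappaB site, bound by NF-kB, lies next to an interferon response element, bound by interferon regulatory factors. RefSeq promoter sequences (GRCm38.p6) of 250 bases before to 50 bases after a start were held for 8 of the 10 genes, and not for Tap2 or Nlrc5. The flanks of 4 genes are shown, without the bases after the start: both classical heavy chains, the light chain that pairs with them, and Tapbp, which had the largest difference among the 9 measured genes. They run 5′ to 3′ along the gene. Capitals mark matches to the kappaB consensus and to the interferon-type motifs GAANNGAAA and GAAANNGAA, on either strand.
H2-K1, chr17:34000348-34000597, minus strand: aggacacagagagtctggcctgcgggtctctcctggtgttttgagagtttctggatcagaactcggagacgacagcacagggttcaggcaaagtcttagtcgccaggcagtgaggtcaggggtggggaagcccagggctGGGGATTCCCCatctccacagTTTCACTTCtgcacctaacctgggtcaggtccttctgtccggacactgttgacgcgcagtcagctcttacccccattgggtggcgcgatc
H2-D1, chr17:35262844-35263093, plus strand: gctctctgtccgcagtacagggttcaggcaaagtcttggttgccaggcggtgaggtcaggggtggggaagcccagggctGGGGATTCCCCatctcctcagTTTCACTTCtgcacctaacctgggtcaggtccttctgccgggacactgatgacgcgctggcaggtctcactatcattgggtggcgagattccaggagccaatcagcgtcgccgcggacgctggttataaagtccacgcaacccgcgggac
B2m, chr2:122147437-122147686, plus strand: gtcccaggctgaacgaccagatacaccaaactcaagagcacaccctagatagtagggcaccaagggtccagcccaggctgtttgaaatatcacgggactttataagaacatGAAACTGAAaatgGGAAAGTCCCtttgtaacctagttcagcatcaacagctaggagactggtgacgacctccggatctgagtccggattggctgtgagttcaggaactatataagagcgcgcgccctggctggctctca
Tapbp, chr17:33919228-33919477, plus strand: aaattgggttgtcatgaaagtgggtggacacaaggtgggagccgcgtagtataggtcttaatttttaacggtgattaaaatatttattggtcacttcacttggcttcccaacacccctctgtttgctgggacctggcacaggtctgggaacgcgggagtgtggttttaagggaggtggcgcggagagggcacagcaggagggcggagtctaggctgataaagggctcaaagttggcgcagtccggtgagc

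In H2-K1 the kappaB match lay 111 to 101 bases before the start and the interferon-type match 90 to 82 bases before it. H2-D1 carries the same matched letters, at 171 to 161 and at 150 to 142 bases before its start, and a stretch of 47 bases that includes the kappaB match is identical between both windows. In B2m the order is turned round, with the interferon-type match at 139 to 131 and the kappaB match at 126 to 117 bases before the start. The windows of Tapbp, Tap1, Psmb8, Psmb9 and Psmb10 held neither motif. Of all 32851 RefSeq windows of this length, 8.46% held the kappaB consensus, 7.52% held GAANNGAAA, 8.56% held GAAANNGAA, and 1.01% held a kappaB match together with either interferon-type motif. These are matches of letters and no measure of binding. H2-K1 has more than 1 annotated start, and a longer predicted transcript begins upstream of the one shown.

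With the SCD inhibitor, H2-K1 rose 1.28-fold and Tapbp 1.32-fold over DMSO, while B2m and Tap2 lay within 0.011 of their DMSO means on the log2 scale. Tap1 and Psmb10 were also above all DMSO arrays, with adjusted p-values of 0.0594 and 0.0529 in limma. Called means an adjusted p under 0.05 in limma's moderated test, with Benjamini-Hochberg adjustment over all 18820 genes. Counts at an unadjusted p under 0.05 are given below without the share of all genes at that limit. They therefore do not show whether a list holds more such genes than the array as a whole. Of the 9 measured members 2 were called, both higher, against 8.0% of all genes called in either direction, 3.62% called higher and 4.37% called lower. The 3 inhibitor values lay above all 4 DMSO values in 5 members, against 8.30% of all genes, and below them in no member, against 9.02% of all genes. The median difference of the 9 members was 0.15 on the log2 scale, against -0.0037 over all genes.

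Some markers of undifferentiated precursor cells were higher in the same arrays. Of 7 with a value 4 were called higher and none lower, against 3.62% and 4.37% of all genes. These 4 were the growth factor receptors Pdgfra by 0.89 and Pdgfrb by 0.51, the collagen gene Col1a1 by 0.41 and the precursor antigen Dlk1 by 0.32. The call of Dlk1 was kept without DMSO array 1 and lost without any other single array, with limma adjusted p-values of 0.0826 to 0.129. The other 3 were not called. Thy1 differed by 0.29 (limma adjusted p = 0.137) and Acta2 went the other way, by -0.15 (limma adjusted p = 0.363). Cd34 was near the bottom of the scale at 3.74 with the inhibitor and 3.71 in DMSO. The summed signal of the 7 on the linear scale was 5101 to 5336 with the inhibitor, against 3702 to 4088 in DMSO. The part of these markers in the class I differences was not tested. In bulk RNA, more or fewer cells of a type and more or less RNA per cell cannot be told apart.

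H2-K1, the heavy chain of one of the classical class I molecules (chr17:33996012-34000619), had RMA levels of 10.18, 10.27 and 10.40 on the log2 scale with the inhibitor, against 9.89, 9.95, 9.92 and 9.94 in DMSO. All inhibitor arrays were above all DMSO arrays, and the DMSO arrays lay much closer together than the inhibitor arrays. The means were 10.28 ± 0.11 (SD, n = 3) with the inhibitor and 9.93 ± 0.023 (SD, n = 4) in DMSO, a difference of 0.36 (SE 0.050, 95% interval 0.24 to 0.47) or 1.28-fold (limma adjusted p = 0.00762). The call was kept without any single array.

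The cluster shared by H2-D1 (chr17:35263094-35267497), H2-K1 and LOC547349 is another transcript cluster of the array, and its signal cannot be divided between these genes. As it also carries the symbol H2-K1, it is not separate evidence beside the cluster of H2-K1 alone. Levels of the shared cluster were 9.85, 9.86 and 9.87 with the inhibitor, against 9.37, 9.50, 9.41 and 9.49 in DMSO. The groups did not overlap, and the inhibitor arrays were nearly level with each other. The difference was 0.42 (SE 0.035), 1.34-fold, with a limma adjusted p of 0.00149 in a fit over all 28996 transcript clusters, in which 5.34% were called. It kept its call without any single array, with adjusted p-values of 0.00323 to 0.0133. H2-K1 and H2-D1 are close copies that differ between mouse strains, and how well the probes match the alleles of 3T3-L1 cells was not tested.

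B2m, the light chain without which most heavy chains do not reach the surface (chr2:122147687-122153082), was at 12.16, 12.17 and 12.16 with the inhibitor, against 12.23, 12.16, 12.11 and 12.16 in DMSO. The inhibitor values fell inside the DMSO range. The difference was -0.0047 (SE 0.029, 95% interval -0.07 to 0.07, limma adjusted p = 0.946). Its interval leaves out a measured change of the size seen for H2-K1. Its sign turned in 5 of 17 alternative settings. Of 76 genes with a mean level of 12 or more, 2 were called, against 8.0% of all genes, and the larger of their differences was 0.23 in size. Whether the arrays show a rise in full at such levels was not tested.

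Tapbp, which encodes the tapasin that bridges the transporter and the empty heavy chain (chr17:33919478-33929290), had levels of 10.84, 10.76 and 10.68 with the inhibitor, against 10.36, 10.29, 10.43 and 10.37 in DMSO. The lowest inhibitor array was well above the highest DMSO array. The means were 10.76 ± 0.081 (SD, n = 3) with the inhibitor and 10.36 ± 0.056 (SD, n = 4) in DMSO, a difference of 0.40 (SE 0.047, 95% interval 0.29 to 0.51) or 1.32-fold (limma adjusted p = 0.00394). Without both arrays numbered 1 the adjusted p was 0.055.

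The peptide transporter is a pair of proteins. Tap1, one of them (chr17:34187556-34197225), was at 6.58, 6.87 and 6.80 with the inhibitor, against 6.42, 6.45, 6.54 and 6.38 in DMSO. The groups did not overlap, but inhibitor array 1 was only just above the highest DMSO array. Its difference of 0.30 (SE 0.074) had a limma adjusted p of 0.0594, which missed the threshold, and it passed in 6 of 17 alternative settings, with adjusted p-values from 0.0113 to 0.187. One of these was the fit without inhibitor array 1 (adjusted p = 0.0170).

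Tap2, the partner of Tap1 in the transporter (chr17:34204479-34216321), was at 7.76, 7.80 and 7.85 with the inhibitor, against 7.79, 7.80, 7.79 and 7.80 in DMSO. The DMSO arrays were almost identical and the inhibitor arrays lay on both sides of them. The difference was 0.01 (SE 0.025, limma adjusted p = 0.840). The difference between Tap1 and Tap2 was itself not tested.

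**Figure D1:**
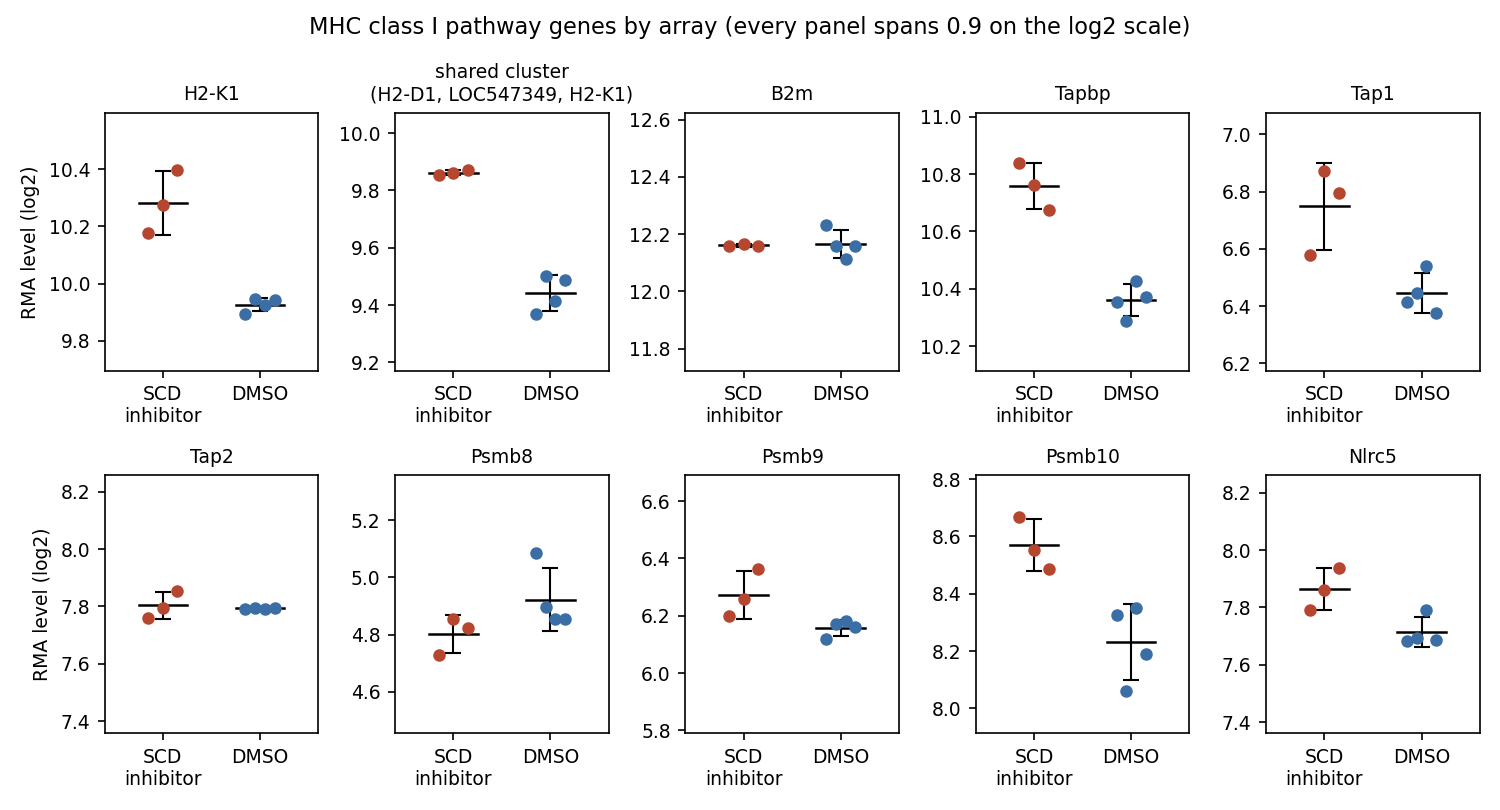
RMA level (log2) of each gene on the 3 SCD inhibitor arrays (left, red) and the 4 DMSO arrays (right, blue), with the mean as a line and 1 SD as bars. Every panel spans the same range on the log2 scale. H2-K1, the shared H2-D1 cluster, Tapbp, Tap1, Psmb9 and Psmb10 show no overlap between the groups, while B2m, Tap2 and Psmb8 overlap, and in Nlrc5 the lowest inhibitor array sits at the level of the highest DMSO array, 7.79.

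Of the 3 inducible proteasome subunits none was called by limma, with 2 higher at an unadjusted p under 0.05, and they did not share a direction. Psmb10, the subunit that takes the place of Psmb7 (chr8:105935728-105938392), was at 8.67, 8.55 and 8.49 with the inhibitor, against 8.32, 8.06, 8.35 and 8.19 in DMSO. The groups did not overlap, and the DMSO arrays were spread more widely than the inhibitor arrays. Its difference was 0.34 (SE 0.080, limma adjusted p = 0.0529), and it passed in 5 of 17 alternative settings (0.0181 to 0.195).

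Psmb9, which takes the place of Psmb6 and whose start lies back to back with that of Tap1 (chr17:34182030-34187330), was at 6.20, 6.26 and 6.36 with the inhibitor, against 6.12, 6.17, 6.18 and 6.16 in DMSO. These groups were apart by a narrow gap, and the difference was 0.11 (SE 0.041, limma adjusted p = 0.164). Psmb8, which takes the place of Psmb5 (chr17:34198195-34201454), had 4.73, 4.85 and 4.82 with the inhibitor, against 5.08, 4.90, 4.85 and 4.85 in DMSO. Its groups touched at 4.85 and DMSO array 1 stood above the others. The difference was -0.12 (SE 0.064, limma adjusted p = 0.345). The promoter windows of Psmb9 and Tap1 share 275 bases, and in neither was a kappaB or interferon-type match found.

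Of the 3 constitutive subunits that the inducible ones replace, none was called by limma either, with 1 higher at an unadjusted p under 0.05. Psmb7 differed by 0.15 (SE 0.054, limma adjusted p = 0.174), Psmb6 by 0.01 (SE 0.035) and Psmb5 by 0.01 (SE 0.041). Of 10 other subunits of the proteasome core with a value, 1 was called higher and none lower, against 8.0% of all genes called. Their median difference was 0.062. The called one was Psma5, a structural subunit of the outer ring, at 9.65 ± 0.094 (SD, n = 3) with the inhibitor and 9.39 ± 0.049 (SD, n = 4) in DMSO (difference 0.26, limma adjusted p = 0.0220). It lost its call without inhibitor array 2 or 3 or DMSO array 1, 2 or 4, with adjusted p-values of 0.0700 to 0.0895. Of 9 genes for proteasome activators and assembly factors 0 were called by limma, with none higher and 2 lower at an unadjusted p under 0.05: Psme2, a part of the interferon-inducible activator, differed by -0.13 and the assembly chaperone Psmg1 by -0.10.

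Peptide trimming and loading, not only in the endoplasmic reticulum, was covered by 11 further genes with a value. Of them 0 were called by limma, with 4 higher and 1 lower at an unadjusted p under 0.05. Their median difference was 0.032. Tapbpl, a relative of tapasin that edits the peptide cargo, differed by 0.19 (SE 0.056, limma adjusted p = 0.106). Sppl2a, an intramembrane protease, differed by 0.11 (SE 0.037). The trimming peptidase Erap1, named after its value was seen, was at -0.042 (SE 0.032).

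Nlrc5, the transactivator of class I genes (chr8:94434335-94527272), was at 7.79, 7.86 and 7.94 with the inhibitor, against 7.68, 7.69, 7.79 and 7.69 in DMSO. DMSO array 3 alone reached the lowest inhibitor array. The difference was 0.15 (SE 0.043, 95% interval 0.05 to 0.25, limma adjusted p = 0.0996). It passed the test with the arrays centred on their medians (adjusted p = 0.0275) and with the mean of all clusters of a gene (difference 0.12, adjusted p = 0.0375).

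The array carries 19 transcript clusters named for Nlrc5 alone, with mean levels from 3.81 to 7.78, and they share the gene and the samples, so they are not separate evidence. In the fit over all clusters 17 of the 19 were higher with the inhibitor, from -0.09 to 0.34 with a median of 0.14. None was called by limma (smallest adjusted p = 0.130), 7 had an unadjusted p under 0.05, and in 3 the inhibitor arrays were above all DMSO arrays.

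**Figure D2:**
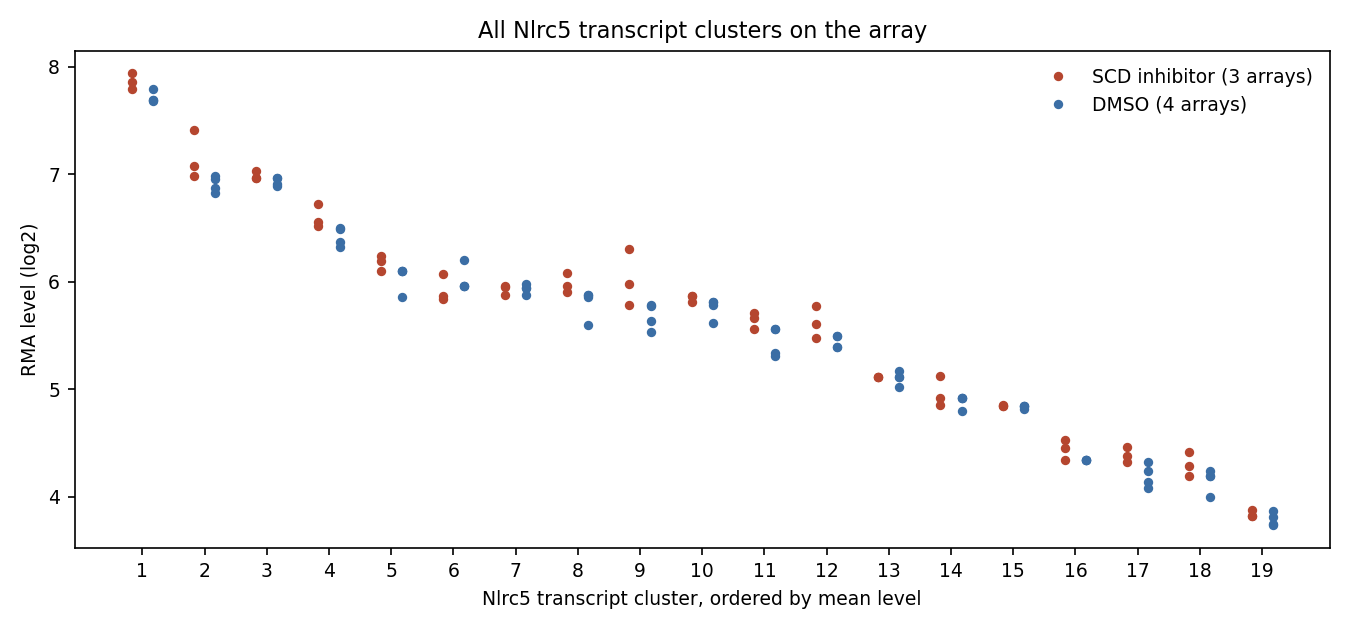
RMA level (log2) of the 19 Nlrc5 transcript clusters, ordered by mean level along the horizontal axis, with the 3 SCD inhibitor arrays left (red) and the 4 DMSO arrays right (blue) in each pair. In most clusters the 2 groups overlap or touch, and 17 of 19 have the higher mean with the inhibitor.

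Heavy chains beyond H2-K1 were measured partly by clusters that carry several class I symbols, which cannot be assigned to 1 gene. There were 6 such clusters, all with a positive difference, and they include the cluster shared by H2-D1, H2-K1 and LOC547349 described above. In the fit over all clusters 3 of the 6 were called higher, that one among them, and 0 lower, against 5.34% of all clusters called. Some of the 6 share a symbol with each other or with a cluster of 1 symbol, so they are not all separate evidence. The cluster shared by H2-Q5 and H2-Q4, of the Qa region, had the largest difference. It was at 6.21, 6.38 and 5.89 with the inhibitor, against 5.33, 4.87, 5.15 and 4.91 in DMSO, with no overlap and a wide spread in both groups. The difference of 1.10 (SE 0.15, 95% interval 0.73 to 1.47) was 2.14-fold (limma adjusted p = 0.0112), and the adjusted p was 0.0503 without inhibitor array 1 and 0.0813 without both arrays numbered 1.

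The cluster of H2-Q6 and H2-Q7 was at 10.78, 10.80 and 10.81 with the inhibitor, against 10.54, 10.49, 10.62 and 10.50 in DMSO. Its groups did not overlap, and the difference was 0.26 (SE 0.035, limma adjusted p = 0.00973, or 0.0986 without both arrays numbered 1). A cluster named for H2-Q6 alone was far dimmer, with a mean level of 5.31. Its groups overlapped and it was not called in the fit over genes (difference 0.14, limma adjusted p = 0.186). Apart from the cluster shared by H2-D1 and H2-K1, the other clusters with several class I symbols were not called. That of H2-T9 and H2-T10 differed by 0.35 (adjusted p = 0.131), that of H2-T9, H2-T22 and H2-T10 by 0.22 (adjusted p = 0.198), and that of Gm8909, Gm10499 and H2-Bl by 0.04 (adjusted p = 0.515).

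Among 26 non-classical class I genes and relatives with a value of their own, 2 were called higher and 2 lower. Over all genes, 3.62% were called higher and 4.37% lower. The median difference of the 26 was 0.040. H2-T9, a heavy chain encoded in the T region of the complex, was at 8.21, 8.33 and 8.37 with the inhibitor, against 7.87, 7.97, 7.97 and 7.98 in DMSO. Its groups did not overlap (difference 0.36, SE 0.046, limma adjusted p = 0.00539). H2-T10 was at 8.27, 8.36 and 8.46 with the inhibitor, against 8.13, 8.05, 7.97 and 7.93 in DMSO (difference 0.34, limma adjusted p = 0.0219). It lost its call without inhibitor array 2 or 3 or DMSO array 2, 3 or 4, with adjusted p-values of 0.0612 to 0.0802. H2-T9, H2-T10 and H2-T22 are near-identical copies, so the signal of their probes cannot be assigned to 1 of them with certainty, and the clusters named for H2-T9 or H2-T10 together with others were not called.

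Both lower ones are relatives that present no peptide. Hfe, a class I-like partner of the transferrin receptor in iron control, was at 5.74, 5.87 and 5.86 with the inhibitor, against 6.28, 6.20, 6.38 and 6.47 in DMSO. All inhibitor arrays were below all DMSO arrays (difference -0.51, SE 0.069, limma adjusted p = 0.00656). Raet1e, a ligand of the activating receptor NKG2D, was dim, at 3.05 ± 0.059 (SD, n = 3) with the inhibitor and 3.35 ± 0.049 (SD, n = 4) in DMSO (difference -0.31, limma adjusted p = 0.00491). Without both arrays numbered 1 the adjusted p was 0.0815 for Hfe and 0.0527 for Raet1e.

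**Figure D3:**
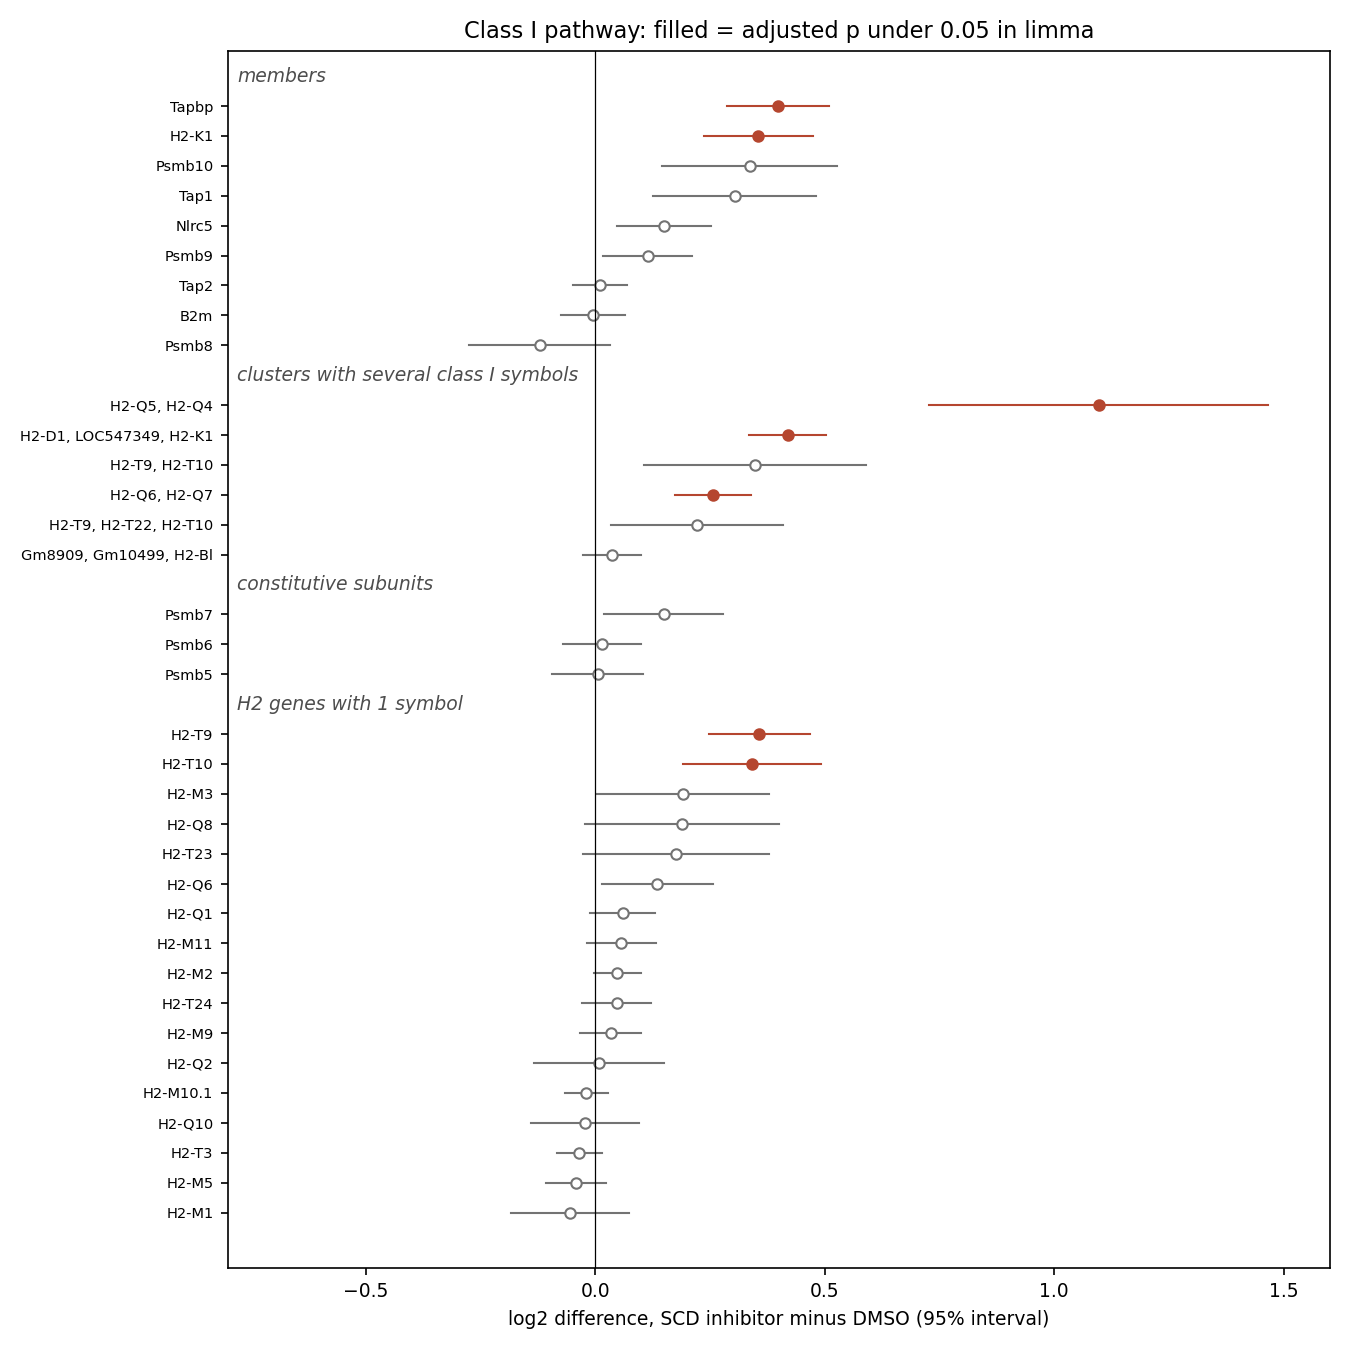
Log2 difference, SCD inhibitor minus DMSO, with its 95% interval from limma, for the 9 measured members, the 6 clusters with several class I symbols, the 3 constitutive proteasome subunits and the H2 genes with 1 symbol. Filled points had an adjusted p under 0.05. Tapbp and H2-K1 are filled among the members, and the H2-Q5 and H2-Q4 cluster, at 1.10, lies farthest to the right.

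Class I genes are classical interferon targets, so the receptors and signalling genes of that pathway were set beside them. Of 19 with a value, 2 were called higher and 2 lower, against 3.62% and 4.37% of all genes. Counting these, 6 were higher and 3 lower at an unadjusted limma p under 0.05. The median difference of the 19 was 0.0072, and the activity of the pathway was not tested. Irf9, the DNA-binding part of the type I interferon complex, was at 6.80 ± 0.16 (SD, n = 3) with the inhibitor and 6.39 ± 0.044 (SD, n = 4) in DMSO (difference 0.41, limma adjusted p = 0.0198). The call was lost without any 1 of the DMSO arrays, with adjusted p-values of 0.0595 to 0.0692. Socs3, a feedback inhibitor of cytokine signalling, was 0.27 higher (limma adjusted p = 0.0171, or 0.0521 without inhibitor array 3 and 0.0584 without DMSO array 2). With the mean of all its clusters in place of the brightest, the difference of Socs3 was 0.12 and the adjusted p 0.207.

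The kinase Jak1, used by all interferon receptors, was at 10.57, 10.61 and 10.61 with the inhibitor, against 11.03, 10.98, 10.93 and 10.95 in DMSO. Its groups were far apart, and the difference was -0.38 (SE 0.027, limma adjusted p = 5.1e-04). Ifnar2, a chain of the type I receptor, had a difference of -0.19 (limma adjusted p = 0.0392), a call kept without inhibitor array 3 and lost without any other single array, with adjusted p-values up to 0.125. Irf1, a factor that binds the interferon element of class I promoters, differed by -0.11 (SE 0.070, limma adjusted p = 0.415) and was not called.

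Among 13 genes for NF-kB and the factors of the class I enhanceosome, 2 were called higher and none lower. Over all genes, 3.62% were called higher and 4.37% lower. The median difference of the 13 was -0.0078. Nfya, a subunit of the factor that binds CCAAT boxes, differed by 0.16 (SE 0.029), and Rela, the p65 subunit of NF-kB, by 0.14 (SE 0.032). The call of Nfya was kept without inhibitor array 1 and lost without any other single array (0.0517 to 0.0713), and that of Rela was kept without DMSO array 1 and lost without any other (0.0752 to 0.142). Of 12 genes for class I traffic, 1 was called lower and none higher, a share near the 8.0% of all genes called. The called one was Rab11a, a small GTPase of recycling endosomes, which differed by -0.16 (SE 0.027). Its limma adjusted p was 0.0619 without inhibitor array 3 and 0.0534 without DMSO array 2.

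Class II molecules, which present taken-up protein and belong mainly to immune cells, were measured as a counterpart. Of 9 genes with a value, none was called higher and 2 were called lower, against 3.62% and 4.37% of all genes. Cd74, the invariant chain of class II, was at 4.38, 4.55 and 4.50 with the inhibitor, against 4.95, 4.84, 5.06 and 5.08 in DMSO. The groups did not overlap (difference -0.51, SE 0.069, limma adjusted p = 0.00673, or 0.0818 without both arrays numbered 1). H2-DMa, a chain of the class II peptide editor, was at 7.22 ± 0.077 (SD, n = 3) with the inhibitor and 7.60 ± 0.11 (SD, n = 4) in DMSO (difference -0.38, limma adjusted p = 0.0168). Its call was lost without inhibitor array 2 or 3 or DMSO array 1 (0.0579 to 0.0737). The chains H2-Aa, H2-Ab1 and H2-Eb1 and the transactivator Ciita, named after their values were seen, were dim and differed by -0.03 to 0.024.

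**Figure D4:**
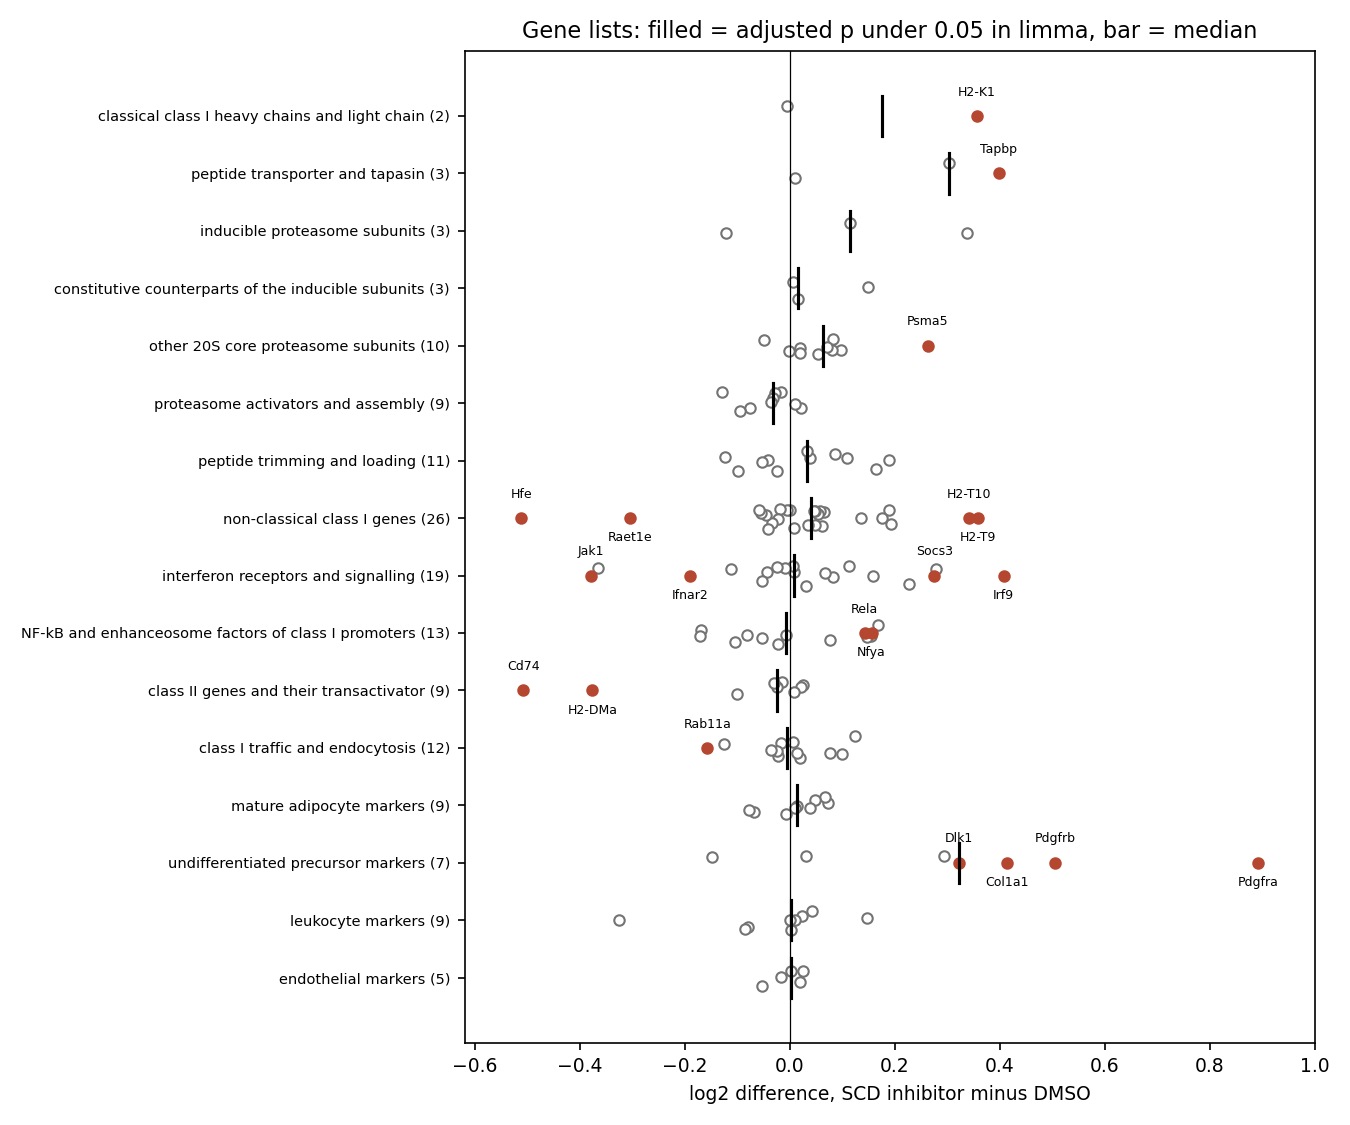
Log2 difference, SCD inhibitor minus DMSO, of every gene with a value in each list (number in brackets). Filled points had an adjusted p under 0.05 in limma and carry their name, and the black bar is the list's median. The precursor markers have the highest median of the lists, 0.32, and the 9 mature adipocyte markers and the 9 leukocyte markers have no filled point.

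The samples were checked for other cells and stages. The labels call the material pre-adipocyte, while the 9 mature adipocyte markers had mean levels of 10.3 to 12.7, against a median of 5.59 over all genes, and none of them was called by limma, with 2 higher at an unadjusted p under 0.05. None of the 9 leukocyte markers was called by limma, with 1 lower at an unadjusted p under 0.05. Their summed signal was 205 to 213 with the inhibitor, against 215 to 225 in DMSO, and Ptprc, present on all leukocytes, was at 4.09 ± 0.048 (SD, n = 3) with the inhibitor and 4.09 ± 0.016 (SD, n = 4) in DMSO.

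No array was high or low throughout the pathway. Of the 9 members, inhibitor array 3 held the highest value of all 7 arrays in 4 and inhibitor array 1 in 2, while the lowest value was on DMSO array 1 in 3 members and on inhibitor array 1 in 2. Over all genes, correlations ran between 0.99902 and 0.99948 for array pairs within a group and between 0.99684 and 0.99750 for pairs across groups. The number of arrays limits the precision, with a median standard error of 0.039 on the log2 scale.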

How the data were processed

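The table the authors deposited holds log2 expression values, and RMA is the method the submitters' processing notes name for them. The RMA version and the annotation release were not given in the sources used here, nor was a filter. Input was, per the labels' protocols, 100 ng of RNA, and each array took 1 sample. All 7 arrays entered 1 linear model, SCD inhibitor against DMSO, without a block, in limma 3.58.1 (lmFit and eBayes, R 4.3.3). It covered 18820 genes, taken from the 21218 of 28996 clusters with 1 symbol in GEO's platform annotation, the brightest cluster per gene, with no filter on dim genes. The Benjamini-Hochberg adjustment covered every gene of the fit. Clusters with several symbols were fitted among all 28996, unmerged, a choice made after seeing the data. Differences are inhibitor minus DMSO, and SE and intervals come from the moderated fit. The fit was tested on simulated data.

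The members and gene lists were chosen with earlier results of these data known. The named genes are all members, Psmb5, Psmb6, Psmb7 and Irf1, up to 4 called members of each other list by size of difference, or 2 with the smallest p where none was called, and the called markers. Genes of a list without a row of their own were not analysed here. The other settings were the replicate number as a block, each array left out, both arrays numbered 1 left out, further quantile normalization, median centring, dropping the dimmest 25% or 50% of genes, trend and robust options, array weights, and the mean of all clusters of a gene. Sequences and gene positions are from RefSeq (GRCm38.p6).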

Additional observations from a re-analysis of the deposited data

Results flagged for a closer look

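Of 35 genes examined for a stray sample within the 4 DMSO arrays, 3 had 1 array far from the others, where chance flags about 1 in 20 groups. Nlrc5 was at 7.79 on DMSO array 3, against 7.68 to 7.69 on the other DMSO arrays. H2-T9 was at 7.87 on DMSO array 1, below the 7.97 to 7.98 of the others. Psmb5 was at 11.98 on DMSO array 1, above the 11.83 of the others. The inhibitor group, with 3 arrays, is too small for this check.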

How the results depend on the processing

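Without 1 array at a time, called genes numbered 949 to 1294 (1505 with all arrays), with 369 to 712 higher and 541 to 643 lower. Called members numbered 2 to 3, and called genes of the other pathway lists 6 to 13 (14 with all arrays), with 1 to 7 higher and 5 to 6 lower. Without both arrays numbered 1 the counts were 808 genes (434 higher, 374 lower), 1 member (H2-K1; Tapbp had an adjusted p of 0.055) and 4 other pathway genes (3 higher, 1 lower). Same-numbered arrays deviated together with correlations of 0.174, 0.138 and 0.0796. Differently numbered arrays were not compared in this way, so these values do not settle whether the numbers pair the samples. The main fit did not treat them as pairs. With the replicate number as a block, which gives DMSO array 4 no partner and so no weight in the difference, 896 genes were called (437 higher, 459 lower), 0 members by limma (6 at an unadjusted p under 0.05, H2-K1 at an adjusted p of 0.050001, Tapbp at 0.0624) and 7 other pathway genes (3 higher, 4 lower). Under the same block the adjusted p was 0.0379 for the cluster shared by H2-D1 and H2-K1, 0.101 for that of H2-Q5 and H2-Q4 and 0.0805 for that of H2-Q6 and H2-Q7. Quantile normalization gave 1032 higher genes and centring 1117, against 682. The called members were 4 after quantile normalization and 5 after centring, and 4 with the dimmest 25% or 50% of genes dropped, where fewer genes were tested. The median difference of all genes stayed between -0.0078 and 0.0090 in every setting. No called difference of a named gene turned its sign. No detection calls were used, so for dim genes such as Psmb8, Raet1e and Cd74 the level over background is not known.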
